A study of Mus musculus with 4 samples.

Results

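MIF, its homolog DDT (D-dopachrome tautomerase) and 5 genes of their receptors, with the co-receptor CD44 among them, were followed as 7 genes (Mif, Ddt, Cd74, Cd44, Cxcr2, Cxcr4 and Ackr3), taken by symbol from the 32285 genes counted in single cells of YUMMER1.7 melanomas. All 7 were found in the gene tables, and 5 of them had enough UMIs (unique molecular identifiers, 1 for each RNA molecule captured) to be tested. Mif was high in T cells, NK cells and monocytes/macrophages and low in plasmacytoid and mature dendritic cells (DCs), Ddt was highest in mature DCs, and Cd74 was high in monocytes/macrophages and both kinds of DC and low in T and NK cells.

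MIF is a cytokine that cells keep preformed and release on stress or inflammatory stimuli. It binds CD74, a chaperone of MHC class II that also reaches the cell surface, and CD44, a hyaluronan receptor, passes the signal on to SRC family kinases, ERK and AKT. MIF also engages the chemokine receptors CXCR2 and CXCR4 and the atypical receptor ACKR3, and it counters apoptosis and holds macrophages at the site of inflammation. DDT binds CD74 as well, and both proteins are made by many cell types, tumor cells and macrophages among them.

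Male C57BL/6J mice, 7 to 8 weeks old, carried subcutaneous tumors grown from 300000 YUMMER1.7 cells, a mouse melanoma line with many UV-induced mutations. From day 7 they received anti–PD-1 (10 mg/kg), anti-MIF (20 mg/kg), the combination of both (anti–PD-1/anti-MIF) or an isotype control antibody. The long treatment cohort had 4 doses over 2 weeks and tumors taken at day 21, and the short treatment cohort had 2 doses over 1 week and tumors taken at day 14. Sorted cells were recombined as 20% CD45− and 80% CD45+ cells, a hashtag antibody marked the cells of each arm, and each cohort was run as 1 pooled library. An arm is therefore 1 hashtagged sample without a replicate, the mice within it cannot be told apart, and a cohort cannot be told apart from its library.

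The hashtag sequences decide to which arm a cell belongs, so the 5 tags are shown whole, in capitals, as read in the hashtag library.
Isotype: ACCCACCAGTAAGAC
anti-PD1: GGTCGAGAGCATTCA
anti-MIF: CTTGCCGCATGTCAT
anti-PD1-MIF: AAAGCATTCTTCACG
anti-PD1-MIF-DDT: CTTTGTCTTTGTGAG
The tags have 15 bases, and any 2 of them differ at 8 to 13 positions. The fifth tag is not among the sample labels, so its cells (322 in the long and 993 in the short cohort) entered no test and are given apart. The 4 labelled arms kept 204, 319, 879 and 269 cells in the long cohort (isotype, anti–PD-1, anti-MIF, then the combination) and 745, 1370, 556 and 448 cells in the short cohort, in the same order. Median depth per cell lay between 5985 and 9803 UMIs in the long and between 5575 and 6300 UMIs in the short cohort.

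Lineages were gated by at least 1 UMI of Cd3e (T), Ncr1 (NK), Siglech (plasmacytoid DC, pDC), Ccr7 with Fscn1 (mature DC), or Lyz2 with Ly6c2 or C1qb (monocyte/macrophage). The gates held 252 T, 34 NK, 42 pDC, 102 mature DC and 820 monocyte/macrophage cells of the long cohort, and the short cohort had 286, 102, 44, 46 and 1856. In the long and short cohort 392 and 746 cells met no gate, and 29 and 39 cells met several and were left out. In both cohorts all 6 markers of T, NK, pDC and mature DC were highest in their own gate, and of the 9 monocyte/macrophage markers 7 were highest there in the long and 8 in the short cohort. The lists hold the gate genes, for which this is no check, and the other markers of the first 4 lineages were each highest in their own gate as well. The exceptions were Ly6c2, higher in pDC in both cohorts, and Plac8, higher in pDC in the long cohort. No cell passed the melanoma marker gate in either cohort, although 198 and 260 kept cells had no UMI of Ptprc, the gene of CD45, so levels in tumor cells are not analysed here. The 2 libraries shared 20 cell barcodes, 14 of them among the kept cells. The long anti–PD-1/anti-MIF arm stood apart in its monocyte/macrophage gate, where 6 neutrophil markers summed to 7044 CPM (counts per 1000000 gene UMIs of the summed cells) against 246 to 1336 CPM in the other 7 arms.

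The ligand genes lie near each other on chromosome 10, and their promoters are shown because their levels followed different orders of lineages. By GENCODE vM21 on GRCm38, Mif (ENSMUSG00000033307) spans chr10:75859353-75860240 and Ddt (ENSMUSG00000001666) chr10:75771230-75773414, both on the minus strand and 85.9 kb apart. The promoters run from 250 bases before to 50 bases after the start (RefSeq, GRCm38.p6, minus strand), at chr10:75860228-75860527 for Mif and chr10:75773325-75773624 for Ddt, with matches to 3 short motifs on either strand in capitals.
Mif: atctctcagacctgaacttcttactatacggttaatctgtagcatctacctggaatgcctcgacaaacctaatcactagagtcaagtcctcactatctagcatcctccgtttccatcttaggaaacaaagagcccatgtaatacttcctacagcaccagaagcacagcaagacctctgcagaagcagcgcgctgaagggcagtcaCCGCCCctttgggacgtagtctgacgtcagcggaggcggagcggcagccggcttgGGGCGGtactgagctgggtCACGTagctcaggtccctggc
Ddt: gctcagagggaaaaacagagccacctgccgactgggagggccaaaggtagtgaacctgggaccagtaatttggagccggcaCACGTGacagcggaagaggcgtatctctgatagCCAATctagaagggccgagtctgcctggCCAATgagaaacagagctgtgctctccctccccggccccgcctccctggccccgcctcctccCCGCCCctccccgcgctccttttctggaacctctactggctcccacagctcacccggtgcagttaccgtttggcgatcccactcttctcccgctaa
ACGTG, the core bound by hypoxia-inducible factors, matched at 1 place in the Mif and 2 places in the Ddt promoter, where it occurs in 19.6% of 32851 mouse promoters of this length. The 2 Ddt matches overlap as a palindrome. The GC box GGGCGG matched at 2 places in Mif and 1 in Ddt (35.7% of promoters). The CCAAT box matched at 0 and 2 places (37.4%). These are matches of letters, not binding sites. Of the receptors, Cd44 (ENSMUSG00000005087) spans chr2:102811141-102901665, Cxcr2 (ENSMUSG00000026180) chr1:74153989-74161246, Cxcr4 (ENSMUSG00000045382) chr1:128588199-128592293 and Ackr3 (ENSMUSG00000044337) chr1:90203980-90216751.

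Mif was highest in monocytes/macrophages, NK cells and T cells. Over the 8 arms, monocytes/macrophages ranged from 644 to 839 CPM with a median of 768 CPM. T cells ranged from 502 to 900 CPM (median 626), and NK cells from 508 to 877 CPM (median 714, in the 7 arms with at least 5 cells). These 3 ranges overlapped. pDC lay at 213 to 411 CPM (median 294, 7 arms) and mature DC at 70.5 to 387 CPM (median 187), and neither range met that of T cells, NK cells or monocytes/macrophages, which were higher in every arm that held both lineages. In the quasi-likelihood test of edgeR with arm as a block and Benjamini-Hochberg adjustment, Mif was called (adjusted p under the 0.05 threshold and an absolute log2 fold change above 1) higher in monocytes/macrophages than in the mean of the other 4 lineages (log2 fold change 1.06, SE 0.11, adjusted p = 6.28e-11), a call lost in the short cohort alone (0.89). It was called lower in pDC (−1.10, SE 0.17, adjusted p = 7.65e-07) and in mature DC (−1.41, SE 0.16, adjusted p = 2.03e-10). T cells (0.77, SE 0.12, adjusted p = 7.41e-07) and NK cells (0.68, SE 0.14, adjusted p = 0.00016) were also above the rest, under the fold threshold. Monocytes/macrophages and T cells differed by less than the test resolved (T against monocyte/macrophage −0.23, SE 0.14, adjusted p = 0.150), as did NK cells and monocytes/macrophages (−0.30, SE 0.16, adjusted p = 0.113) and pDC and mature DC (0.25, SE 0.21, adjusted p = 0.345). With cells thinned to 2000 UMIs, Mif was seen in 56.6% of T cells, 46.9% of NK cells, 61.0% of monocytes/macrophages, 27.5% of pDC and 24.0% of mature DC in the long cohort. In the short cohort it was seen in 60.2%, 56.7%, 55.2%, 38.1% and 32.6% of the same lineages, so the order of the first 3 differed between cohorts. Cells with type 1 conventional DC markers, 25 in the long and 13 in the short cohort and in no test, had Mif at 363 CPM (exact Poisson 95% interval 306 to 428) and 505 CPM (407 to 619), the latter within the T cell range.

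**Figure D1:**
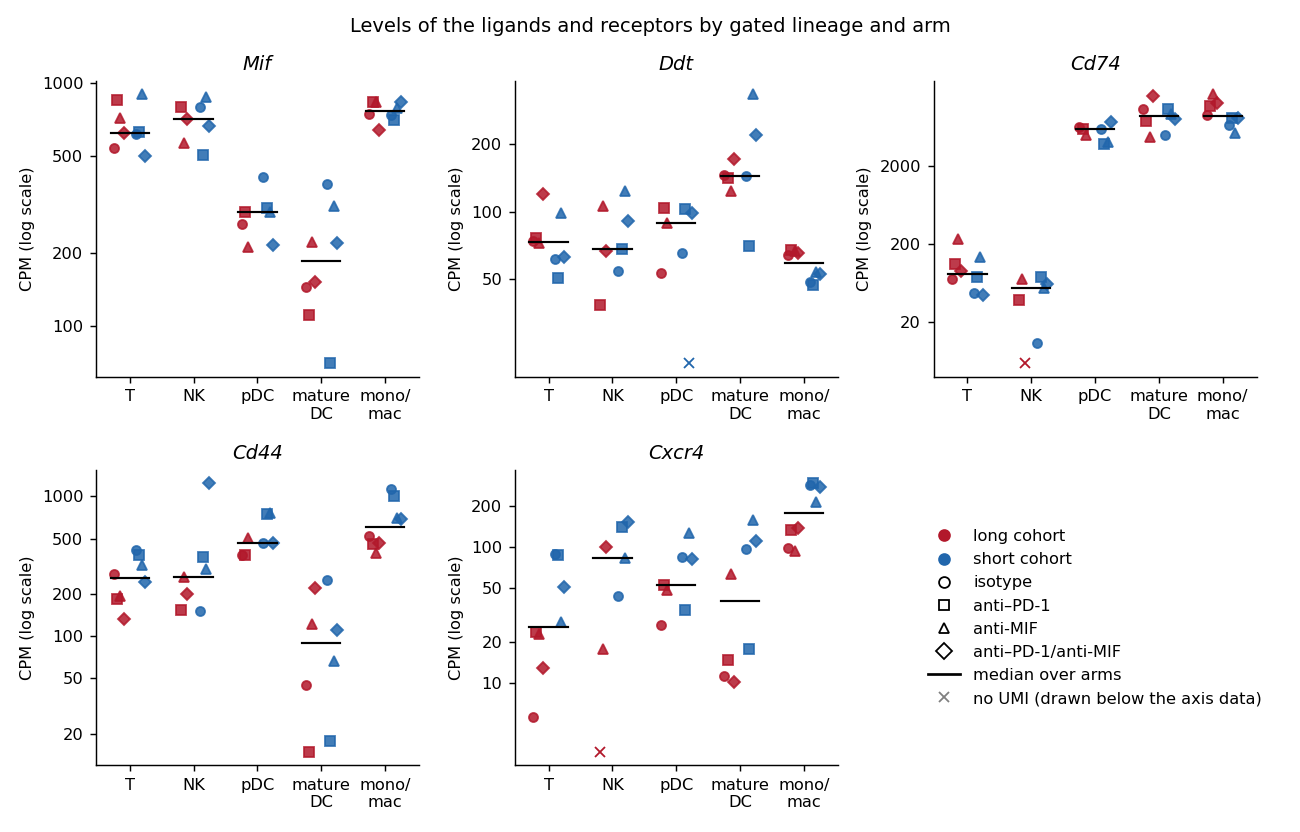
CPM (log axis) of Mif, Ddt, Cd74, Cd44 and Cxcr4 in each gated lineage, 1 point for each arm (red, long cohort; blue, short cohort; shape, treatment), with the median over arms as a line and crosses for arms without a UMI, sums under 5 cells left out. The pDC and mature DC points for Mif lie below all points of the other 3 lineages, and T and NK cells lie far below the others for Cd74.

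Ddt had a different order, with mature DC at the top. Mature DC ranged from 70.5 to 334 CPM over the 8 arms, with a median of 145 CPM. Medians were 89.1 CPM in pDC, 73.0 in T cells and 67.8 in NK cells. Of the 5 lineages, monocytes/macrophages had the lowest median, at 58.9 CPM (46.9 to 67.4). Mature DC lay above monocytes/macrophages in 8 of 8 arms without overlap, and above T cells in 8 of 8, NK cells in 7 of 7 and pDC in 6 of 7 arms, with ranges that overlapped. Ddt was called higher in mature DC than in the other lineages (log2 fold change 1.13, SE 0.18, adjusted p = 3.91e-07). Against monocytes/macrophages alone the difference was 1.37 (SE 0.18, adjusted p = 1.29e-08). In monocytes/macrophages the log2 fold change against the rest was −0.58 (SE 0.14, adjusted p = 0.00036), under the fold threshold, and T, NK and pDC differed from the rest by less than the test resolved (adjusted p = 0.43, 0.86 and 0.50). Ddt rested on few UMIs in the small gates (44 in pDC, 62 in NK cells), and the short anti-MIF arm had none in 6 pDC.

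The balance of the ligands differed most between mature DC and monocytes/macrophages. In a 5′ library each molecule is counted 1 time whatever its length, but capture can differ between genes, so the number of Mif UMIs per Ddt UMI is compared between lineages only. It was 9.85 to 15.8 in the 8 monocyte/macrophage sums (median 13.6), 5.18 to 12.5 in T cells (median 9.53) and 5.33 to 21 in NK cells (median 7.5, 7 arms). In pDC it was 2.18 to 6.29 (median 2.92, the 6 arms with UMIs of both), and in mature DC 0.789 to 2.67 (median 1.00). Mature DC overlapped with pDC but not with T cells, NK cells or monocytes/macrophages, and pDC also overlapped with T and NK cells but not with monocytes/macrophages. Some of these ratios rest on few UMIs. The NK value of 21 came from 63 Mif and 3 Ddt UMIs (long anti–PD-1). In mature DC of the short anti–PD-1 arm there were 4 UMIs of each.

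**Figure D2:**
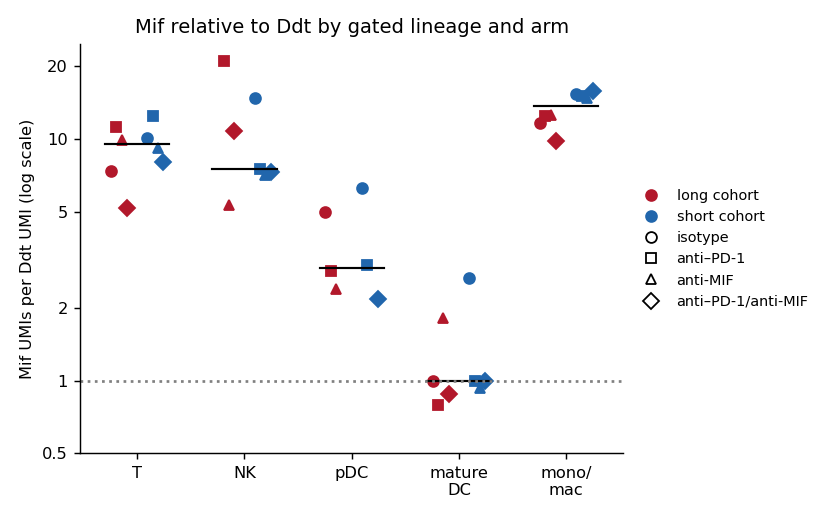
Mif UMIs per Ddt UMI (log axis) in each gated lineage, 1 point for each arm (colour, cohort; shape, treatment) with the median as a line and equality as a dotted line. Mature DC sit between 0.789 and 2.67 and monocytes/macrophages between 9.85 and 15.8.

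Cd74, the receptor of both ligands, was high in monocytes/macrophages, mature DC and pDC and low in T and NK cells. Monocytes/macrophages ranged from 5349 to 16409 CPM (median 8672), mature DC from 4740 to 15592 CPM (median 8603) and pDC from 3862 to 7194 CPM (median 5899, 7 arms). T cells lay at 44.0 to 230 CPM (median 82.9) and NK cells at 0 to 76.3 CPM (median 54.8, 7 arms). The 2 sets of lineages did not overlap in any arm. Cd74 was called in all 5 lineages, higher in monocytes/macrophages (log2 fold change 3.80, SE 0.17, adjusted p = 2.50e-23), mature DC (3.61, SE 0.18) and pDC (2.63, SE 0.20) and lower in T cells (−4.42, SE 0.27) and NK cells (−5.63, SE 0.35). Mature DC and monocytes/macrophages differed by less than the test resolved (−0.15, SE 0.22, adjusted p = 0.593). pDC were below both, by 0.79 (SE 0.24, adjusted p = 0.0052) and 0.93 (SE 0.24, adjusted p = 0.00099) on the log2 scale, under the fold threshold. In the gates used for levels only, Cd74 reached 26679 and 20867 CPM in 25 and 13 cells with type 1 conventional DC markers (long and short cohort) and 32891 and 14967 CPM in 7 and 22 B cells.

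The low Cd74 signal of T and NK cells is given beside that of a gene they lack, since free RNA in the droplets also gives UMIs. After thinning, 23.5% of T cells in the long cohort (exact Clopper-Pearson 95% interval 18.1 to 29.5%) and 14.3% in the short cohort (10.2 to 19.4%) had a Cd74 UMI, against 9.38% and 5.15% of NK cells. By arm the long T cell share was 13.7% (isotype), 15.1% (anti–PD-1), 35.3% (anti-MIF) and 21.6% (the combination). Lyz2, a myeloid gene, was seen in 1.33% and 2.05% of T cells and 0% and 3.09% of NK cells, shares made lower by leaving out cells in several gates. Unthinned, Cd74 was seen in 38.9% and 21% of T cells at median depths of 5074.5 and 3957.5 UMIs. The 4 B cell markers summed to 0 to 5.60 CPM in T cells, and the 9 monocyte/macrophage markers to 761 to 2320 CPM, with Ly6c2 the most abundant in every arm. The part of free RNA and of other cells in the T and NK cell levels was not tested.

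Among the 5 lineages, Cd44 was highest in monocytes/macrophages (395 to 1131 CPM, median 605) and pDC (381 to 759 CPM, median 468). T cells lay at 133 to 415 CPM (median 261) and NK cells at 151 to 1245 CPM (median 266), and mature DC were lowest at 14.8 to 254 CPM (median 88.7). Mature DC did not overlap with monocytes/macrophages or pDC, while T cells were below monocytes/macrophages in 8 of 8 arms with overlapping ranges. Cd44 was called higher in monocytes/macrophages (log2 fold change 1.40, SE 0.18, adjusted p = 7.05e-09) and lower in mature DC (−1.67, SE 0.27, adjusted p = 9.45e-07). The value in pDC was 0.60 (SE 0.25, adjusted p = 0.046), under the fold threshold. T and NK cells did not pass (adjusted p = 0.325 and 0.924). The top of the NK range was 1 arm of 7 cells, the short anti–PD-1/anti-MIF arm with 1245 CPM, and the next arm had 367 CPM.

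CD74 signals through CD44, so the share of cells with a UMI of both was counted at equal depth. It was 40.6% of monocytes/macrophages in the long cohort and 47.7% in the short cohort, 42.5% and 61.9% of pDC, 16.0% and 14% of mature DC, 7.52% and 7.38% of T cells and 3.13% and 3.09% of NK cells. By arm the long T cell share was 3.92% (isotype), 3.77% (anti–PD-1), 11.8% (anti-MIF) and 8.11% (the combination). These were 2, 2, 10 and 3 cells, and the short cohort is not split by arm here. Mature DC had Cd74 in 98.0% and 97.7% of cells and Cd44 in 16.0% and 16.3%, so in that lineage the joint share stood at the Cd44 share in the long cohort and just below it in the short cohort. Without thinning the joint share was 82.4% and 72.4% of monocytes/macrophages and 22.6% and 15.0% of T cells. At 2000 UMIs a low gene is missed in many cells that hold it, and the intervals cover counting error only.

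Of the chemokine receptors, Cxcr4 was the only one with UMIs in all 5 lineages in both cohorts. Monocytes/macrophages ranged from 92.3 to 292 CPM (median 175). The medians of the others were 82.2 CPM in NK cells (0 to 152), 51.9 in pDC (26.5 to 126), 40.0 in mature DC (10.1 to 156) and 25.9 in T cells (5.66 to 88.3). Monocytes/macrophages were above T cells in 8 of 8 arms without overlap, and above NK cells in 7 of 7, pDC in 7 of 7 and mature DC in 8 of 8 arms with overlapping ranges. Cxcr4 was called higher in monocytes/macrophages (log2 fold change 1.82, SE 0.18, adjusted p = 2.84e-12) and lower in T cells (−1.09, SE 0.25, adjusted p = 0.00032), the latter not in the short cohort alone (−0.78).

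Cxcr2, the receptor that brings neutrophils into tissue, and Ackr3, a scavenging receptor, were at or near 0 in the 5 lineages and failed the filter on low counts in every fit. Cxcr2 gave 19 UMIs in monocytes/macrophages of each cohort, and 12 of the 19 in the long cohort came from the anti–PD-1/anti-MIF arm, where the neutrophil markers were high. The part of neutrophils in this count was not tested. In T cells Cxcr2 had 0 UMIs in the long cohort, which allows up to 1.90 CPM (3 UMIs), and 1 UMI in the short cohort. Cells gated by S100a8, S100a9 and Csf3r (31 in the long and 47 in the short cohort) held Cxcr2 at 371 CPM (exact Poisson 95% interval 281 to 479) and 497 CPM (385 to 632), with Cxcr4 at 256 and 290 CPM, Cd44 at 799 and 1277 CPM and Mif at 230 CPM in both. This gate shares cells with the lineage gates. In the long cohort it held 58 Cxcr2 UMIs, while all cells without a lineage gate held 52. Ackr3 had no UMI in T cells, NK cells, pDC or mature DC. Of its 15 UMIs in the long cohort 5 lay in 9 stromal cells (58.1 CPM, 18.9 to 136) and 2 in monocytes/macrophages, and of the 15 in the short cohort 12 lay in monocytes/macrophages.

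**Figure D3:**
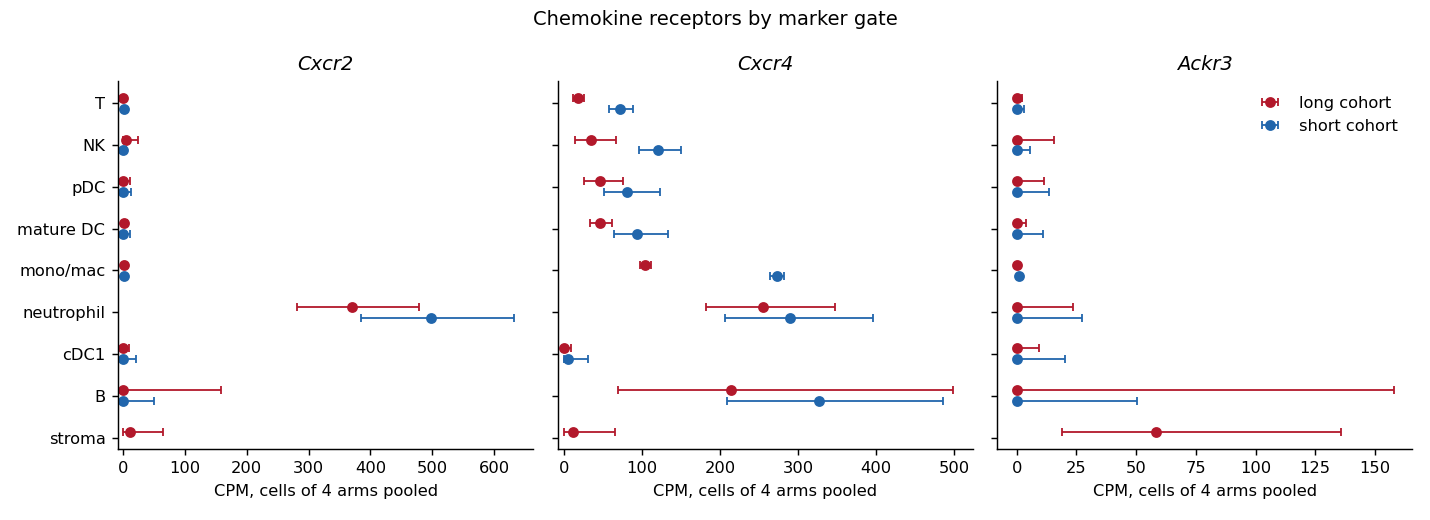
CPM of Cxcr2, Cxcr4 and Ackr3 (linear axes) in the cells of each marker gate, the 4 labelled arms of a cohort pooled, with exact Poisson 95% intervals that cover counting error only and gates under 5 cells left out. Cxcr2 stands apart in the neutrophil gate at 371 and 497 CPM, while Cxcr4 is spread over monocytes/macrophages, neutrophils and B cells.

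The 5 tested genes are counted beside the whole transcriptome, in which many genes differ between lineages. In T cells none was called higher and 2 lower (Cd74 and Cxcr4), where 23.7% of 5045 genes were called, 14.7% higher and 9.04% lower. In NK cells 0 and 1 were called (23.5% of genes, 11.6% higher and 11.9% lower), and in pDC 1 and 1 (30.0%, 17.8% higher and 12.2% lower). In mature DC 2 and 2 were called (41.3%, 18.8% higher and 22.4% lower). In monocytes/macrophages 4 were called higher and 0 lower (27.5%, 18.8% higher and 8.66% lower), with Ddt the exception. Between single lineages, 9.55% of genes were called for T and NK cells, 35.0% for T cells and pDC, 47.4% for T cells and mature DC, 37.1% for T cells and monocytes/macrophages, 32.4% for NK cells and pDC, 46.6% for NK cells and mature DC, 35.9% for NK cells and monocytes/macrophages, 44.6% for pDC and mature DC, 35.0% for pDC and monocytes/macrophages and 41.0% for mature DC and monocytes/macrophages. With 5 genes, such counts carry no statement about the set.

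Monocytes/macrophages were 49.1% and 59.5% of kept cells and gave most UMIs of the 5 tested genes. These cells also held most UMIs of all genes, 9251807 of 15039110 in the long and 13626107 of 19443650 in the short cohort. They gave 70.1% of Mif UMIs in the long and 71.9% in the short cohort, 56.5% and 65.2% of Ddt, 70.6% and 75.9% of Cd74, 71.0% and 78.5% of Cd44 and 75.8% and 77.6% of Cxcr4. Mature DC were 6.10% of cells and gave 11.8% of Ddt UMIs but 1.76% of Mif UMIs in the long cohort. Of Cxcr2 UMIs monocytes/macrophages gave 26.0% and 21.1%, and cells without a gate 71.2% and 77.8%, and of the few Ackr3 UMIs monocytes/macrophages gave 13.3% and 80%. These shares move with the sort, which set the ratio of CD45− to CD45+ cells, with the number of cells in each arm and with depth per cell. Per UMI, Mif had 801 CPM in monocytes/macrophages against 703 in all kept cells of the long cohort, and 749 against 730 in the short cohort. Ddt was lower in this gate than in all kept cells, at 66.5 against 72.3 CPM and 49.3 against 53.0 CPM. Cd74, Cd44 and Cxcr4 were higher in it in both cohorts.

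The other genes of the axis were described by 4 lists. In the list of CD74 and MHC class II genes 11 of 15 could be tested across lineages. In monocytes/macrophages 10 were called higher and 1 lower, in mature DC and pDC 7 and 0, in T cells 0 and 9 and in NK cells 0 and 10. Of all genes, 18.8% were called higher in monocytes/macrophages, 18.8% in mature DC and 17.8% in pDC, and 9.04% and 11.9% were called lower in T and NK cells. Most of these genes had few UMIs in T and NK cells and passed the filter on low counts mainly through the other lineages, which made calls likely, so the counts and medians are a description only. The list medians were 3.55 in monocytes/macrophages, 2.35 in pDC, 2.19 in mature DC, −3.61 in T cells and −3.84 in NK cells, beside medians of all genes of −0.01, −0.02, −0.22, 0.14 and −0.003. In monocytes/macrophages the called genes with the largest differences were H2-DMb1 (4.79), which encodes part of the peptide exchanger of MHC class II, the protease gene Lgmn (4.60), and the MHC class II chains H2-Ab1 (4.47) and H2-Eb1 (4.24). In mature DC they were H2-Aa (4.62), H2-Eb1 (4.53), H2-DMb2 (4.51) and Lgmn (3.52), and in pDC H2-DMb1 (3.56), H2-Oa (3.39), which restrains peptide loading, H2-DMb2 (2.85) and H2-Aa (2.83). In T cells they were H2-Aa (−5.69), H2-Eb1 (−5.65), H2-Ab1 (−5.21) and H2-DMb1 (−4.65), and in NK cells H2-Aa (−5.91), Lgmn (−5.37), H2-Eb1 (−5.24) and H2-DMb2, which had no UMI there. With all arms pooled, H2-Aa had 3520 CPM in monocytes/macrophages, 3437 in mature DC and 1914 in pDC against 14.6 in T cells and 12.7 in NK cells. The 1 gene called lower in monocytes/macrophages, named after its value was seen, was H2-Oa (−1.33).

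Of 21 genes in the list of MIF partners and signalling, 18 were tested. Monocytes/macrophages had 8 called higher and none lower, mature DC 5 and 5, pDC 3 and 4, T cells 2 and 3 and NK cells 2 and 2. Of all genes, 18.8% and 8.66% were called higher and lower in monocytes/macrophages, 18.8% and 22.4% in mature DC, 17.8% and 12.2% in pDC, 14.7% and 9.04% in T cells and 11.6% and 11.9% in NK cells, so the counts in T and NK cells lay near those shares. The called genes with the largest differences are given as CPM over all arms, since several were at 0 in some lineage. In monocytes/macrophages they were Pla2g4a, a phospholipase (72.9 CPM against at most 3.86 in any other lineage), Ptgs2, the prostaglandin synthase COX-2 (207 against at most 19.3), Abca1, a lipid exporter (72.9 against at most 11.6), and the SRC family kinase Lyn (853 CPM, with 823 in pDC). Pla2g4a, Ptgs2 and Abca1 had few UMIs elsewhere and so passed the filter on low counts mainly through monocytes/macrophages, which made a call there likely, and the count of 8 is a description only. In mature DC they were Bcl2, which blocks apoptosis (1 UMI), Abca1 (0 UMIs), Ptgs2 (19.3 CPM) and Nfkbia, the inhibitor of NF-κB (921 CPM, with 343 in monocytes/macrophages). In pDC they were Ptgs2 (0 UMIs), the cyclin gene Ccnd1 (409 CPM), Lyn (823) and Dusp1, a phosphatase of ERK (70.9). T cells had Ccnd1 at 1.07 CPM, the kinase Syk at 4.63, Bcl2 at 310 and Lyn at 35.2. In NK cells they were Bcl2 (605 CPM), Nfkbia (133), Dusp1 (139) and Trp53 (88.9).

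Of the CD44 partners 4 of 9 were tested. Spp1, which encodes the CD44 ligand osteopontin, had 690 CPM in NK cells, 322 in monocytes/macrophages and 125 in T cells, with 1 UMI in mature DC and 0 in pDC. It was called higher in all 3, since the contrast averages the other lineages on the log scale and pDC and mature DC hold almost none. Msn, a membrane linker, was called higher in monocytes/macrophages (1.04) and lower in pDC (−1.14), and Rdx, of the same family, higher in mature DC (1.04). Among other ligands of the chemokine receptors only Cxcl2 was tested, a CXCR2 ligand with 503 CPM in monocytes/macrophages and at most 8.09 CPM in any other lineage, so it too passed the filter mainly through them.

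The genes whose levels went with each member over the 38 arm and lineage sums were named by Pearson's r of log2(CPM + 1), as a description, since the sums share libraries and lineages. For Mif these were the glycolytic enzyme genes Eno1 (r = 0.89) and Ldha (0.86) and the myosin gene Myo1f (0.89). For Ddt they were Bloc1s1 (0.91), Sin3b (0.89) and Slc25a11 (0.88), and Mif and Ddt had r = −0.18. For Cd74 they were H2-Aa (0.96), Csf2rb (0.94) and Ctsh (0.94), for Cd44 Zeb2 (0.86), Dhx40 (0.83) and Cyth4 (0.82), and for Cxcr4 Ddx3x (0.73), Gch1 (0.69) and Rasgef1b (0.66).

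Within the monocyte/macrophage gate, cells with C1qb and no Ly6c2 (277 and 192 in the long and short cohort) were compared with cells with Ly6c2 and no C1qb (317 and 1321). C1qb marks mature macrophages and Ly6c2 recently arrived monocytes. Mif was higher on the C1qb side in 8 of 8 arms, at 839 to 2011 CPM (median 1226) against 498 to 736 CPM (median 627), without overlap. It was called (log2 fold change 1.01, SE 0.16, adjusted p = 3.08e-05), 1 of 5 tested genes, where 11.9% of 7869 genes were called, 6.29% higher and 5.64% lower. The value is close to the fold threshold. It fell under that threshold in the long cohort alone (0.69) and under several other alternatives. Ddt was 55.7 to 152 CPM against 39.3 to 70.9 CPM (0.64, SE 0.16, adjusted p = 0.0041) and Cd74 7793 to 16618 against 3206 to 11741 CPM (0.98, SE 0.16, adjusted p = 6.61e-05). Both were higher on the C1qb side in 8 of 8 arms and under the fold threshold.

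Cd44 and Cxcr4 ran the other way. Cd44 was 250 to 691 CPM in C1qb cells and 560 to 1406 CPM in Ly6c2 cells, lower on the C1qb side in 8 of 8 arms (−0.93, SE 0.13, adjusted p = 5.02e-06). Cxcr4 was 30.3 to 414 against 117 to 336 CPM, lower in 7 of 8 arms (−0.62, SE 0.18, adjusted p = 0.010). Neither passed the fold threshold. Markers of other cell types moved with this contrast. The mature DC marker Ccl22 was called lower (−6.80) and the B cell marker Cd79b higher (1.52) in C1qb cells, each the 1 tested of its list. Of 5 neutrophil markers tested, S100a8 (−8.34), S100a9 (−9.23), Retnlg (−8.12) and Csf3r (−1.17) were called lower in C1qb cells, Il1r2 had 0.86, and the 6 neutrophil markers summed to 200 to 14035 CPM in Ly6c2 cells (median 404) and 30.3 to 947 CPM in C1qb cells (median 275). The part of these cell types in the differences of Mif, Ddt, Cd74, Cd44 and Cxcr4 was not tested. In the list of MHC class II genes 5 of 13 were called higher in C1qb cells and none lower, beside 6.29% and 5.64% of all genes. Among them were H2-Eb1 (1.39), H2-Ab1 (1.19), Lgmn (1.11), which processes CD74, and H2-Aa (1.10). Of the other lists, Nfkbia (−1.08), the membrane linker Ezr (−1.03) and the CXCR2 ligand Cxcl3 (−4.85) were called lower. Without the short isotype arm 2 of the 5 MHC class II calls were left (H2-Eb1 and Lgmn), and Nfkbia and Ezr lost theirs. H2-Aa was also lost without the short anti-MIF or the short anti–PD-1 arm, and the fifth, H2-DMb2, without the long anti–PD-1/anti-MIF arm.

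**Figure D4:**
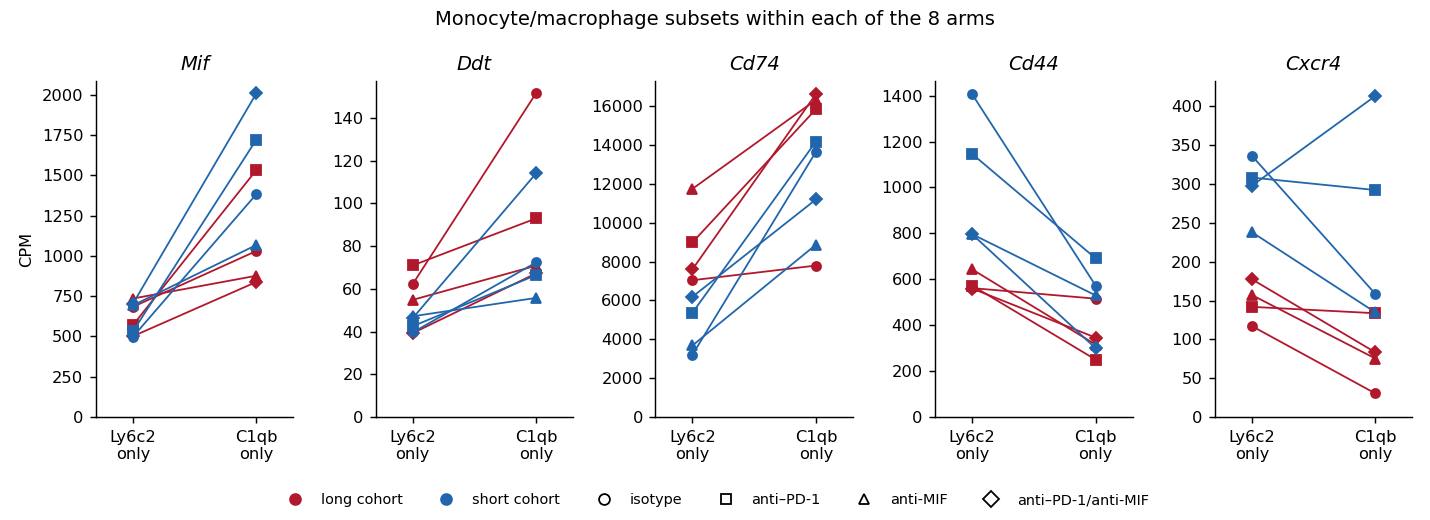
CPM (linear axes from 0) of Mif, Ddt, Cd74, Cd44 and Cxcr4 in Ly6c2-only and C1qb-only cells of the monocyte/macrophage gate, with a line joining the 2 values of each arm (red, long cohort; blue, short cohort). Mif, Ddt and Cd74 are higher in C1qb cells in 8 of 8 arms, and Cd44 is lower in 8 of 8.

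Among T cells, 362 had Cd8a without Cd4 and 62 had Cd4 without Cd8a, and 7 arms held at least 5 cells of both. Cd4 cells had more Cxcr4 and more Cd74. Over these arms Cxcr4 was 6.84 to 38.4 CPM in Cd8a cells and 0 to 242 CPM in Cd4 cells (median 136), higher in Cd4 cells in 6 of 7. It was called lower in Cd8a cells (−2.47, SE 0.54, adjusted p = 0.0061), as was Cd74 (−1.83, SE 0.37, adjusted p = 0.0034), 2 of the 4 genes tested, where 7.56% of 2010 genes were called, 3.38% higher and 4.18% lower. Cd74 was 20.6 to 117 CPM in Cd8a cells and 17.1 to 687 CPM in Cd4 cells, higher in Cd4 cells in 6 of 7 arms, and its call was lost without the long anti-MIF arm (−1.51, adjusted p = 0.109). Mif (0.62, SE 0.28, adjusted p = 0.177) and Cd44 (−0.05, SE 0.30, adjusted p = 0.961) did not pass. The Cd4 sums held 0 to 12 Cxcr4 and 1 to 56 Cd74 UMIs an arm. Markers listed for other cell types also differed, some of them genes that T cells use too. In Cd8a cells both tested monocyte/macrophage markers, Ly6c2 and Plac8 (median 3.23), the perforin gene Prf1 (4.76), Ccr7 (4.25) and Irf8 (2.28) were called higher and the neutrophil marker Il1r2 (−1.66) lower, and their part in the Cxcr4 and Cd74 differences was not tested. Bcl2 was called higher (2.24) and Dusp1 (−1.64) and Nfkbia (−1.40) lower in Cd8a cells, the last not without the long anti-MIF or the short anti–PD-1 arm.

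Between the cohorts, Cxcr4 and Cd44 were lower and Cd74 higher in monocytes/macrophages of the long cohort. In monocytes/macrophages Cxcr4 was 98.3, 131, 92.3 and 136 CPM in the long cohort (in the order isotype, anti–PD-1, anti-MIF, combination) and 285, 292, 213 and 273 CPM in the short cohort. Cd44 was 517, 456, 395 and 466 CPM against 1131, 1014, 704 and 692 CPM. For both genes each long arm lay below each short arm. In the additive model of cohort, anti–PD-1 and anti-MIF (edgeR), Cxcr4 was called lower in the long cohort (log2 fold change −1.23, SE 0.14, adjusted p = 0.0084), as was Cd44 (−0.93, SE 0.15, adjusted p = 0.015). Cd74 was 9034, 11850, 16409 and 12624 CPM in the long and 6685, 8310, 5349 and 8124 CPM in the short cohort, again without overlap, and was called higher in the long cohort (0.80, SE 0.18, adjusted p = 0.034). So 1 of the 5 tested genes was called higher and 2 lower, where 7.50% of 9552 genes were called, 3.29% higher and 4.21% lower. That background was unstable, with 1 to 1064 genes called when 1 arm was left out.

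Mif in monocytes/macrophages was 747, 836, 839 and 644 CPM in the long and 743, 708, 789 and 836 CPM in the short cohort (−0.01, SE 0.12, adjusted p = 0.964), with overlapping ranges. Ddt was 64.2, 67.4, 66.8 and 65.4 CPM against 48.4, 46.9, 53.5 and 52.8 CPM, higher in each long arm than in each short arm, and did not pass (0.38, SE 0.11, adjusted p = 0.070). The C1q genes moved with the cohort in this gate, with C1qa at 1.71, C1qb at 1.28 and C1qc at 1.48 on the log2 scale, as did the mature DC markers Ccr7 (5.40) and Ccl22 (3.85), and C1qb-only cells were 277 of 820 in the long and 192 of 1856 in the short cohort. Within C1qb-only cells the receptor differences were −1.39 for Cxcr4, −0.60 for Cd44 and 0.22 for Cd74, none of them called (adjusted p = 0.147, 0.448 and 0.822), and no gene was called there. Within Ly6c2-only cells all 3 calls were kept. Without the long anti–PD-1 arm none of the 3 was called (adjusted p = 0.065, 0.078 and 0.115), nor after thinning (adjusted p = 0.057, 0.071 and 0.087).

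In T cells Cxcr4 and Cd44 were also lower in the long cohort. Cxcr4 was 5.66, 23.6, 23.0 and 12.9 CPM in the long and 88.3, 86.8, 28.1 and 50.2 CPM in the short cohort (−1.84, SE 0.42, adjusted p = 0.021). Cd44 was 277, 184, 192 and 133 CPM against 415, 378, 323 and 245 CPM (−0.88, SE 0.16, adjusted p = 0.0080). The Cxcr4 ranges did not overlap and the Cd44 ranges did. These were the 2 of 5 tested genes called, both lower, where 7.17% of 5245 genes were called, 3.60% higher and 3.57% lower. Cxcr4 lost its call without any of 5 single arms (adjusted p = 0.052 to 0.138), while Cd44 lost it after thinning (−0.78, adjusted p = 0.108). Markers moved with the cohort here too. The monocyte/macrophage marker Plac8 (−1.07), 1 of 2 tested, the NK marker Gzma (−3.22) and the T cell gene Trbc2 (−0.83) were called lower in the long cohort, and Prf1 (1.80), Cd3g (0.66) and Cd3e (0.66) higher. Their part in the Cxcr4 and Cd44 differences was not tested. Mif (−0.02, SE 0.19), Ddt (0.26, SE 0.26) and Cd74 (0.52, SE 0.33) did not pass. Of the lists, H2-DMb2 (1.84), H2-DMb1 (0.94), Ccnd1 (0.88), Akt1 (0.63) and Trp53 (0.52) were called higher and Ptgs2 (−0.84) lower in monocytes/macrophages of the long cohort, and in T cells Spp1 (2.03) was called higher and Rps19 (−0.52), a ribosomal protein that binds MIF, lower. None of the 6 calls in monocytes/macrophages was made without the long anti–PD-1 arm or within C1qb-only cells, H2-DMb2 was lost without that arm alone, and the other 5 were lost without 4 to 7 of the 8 arms, each left out in turn. In T cells Spp1 was lost without 4 of the 8 arms and Rps19 without 1. In pDC, mature DC and NK cells Cxcr4 in the same arms ranged from 0 to 99.6 CPM in the long and 17.6 to 156 CPM in the short cohort, without a test.

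**Figure D5:**
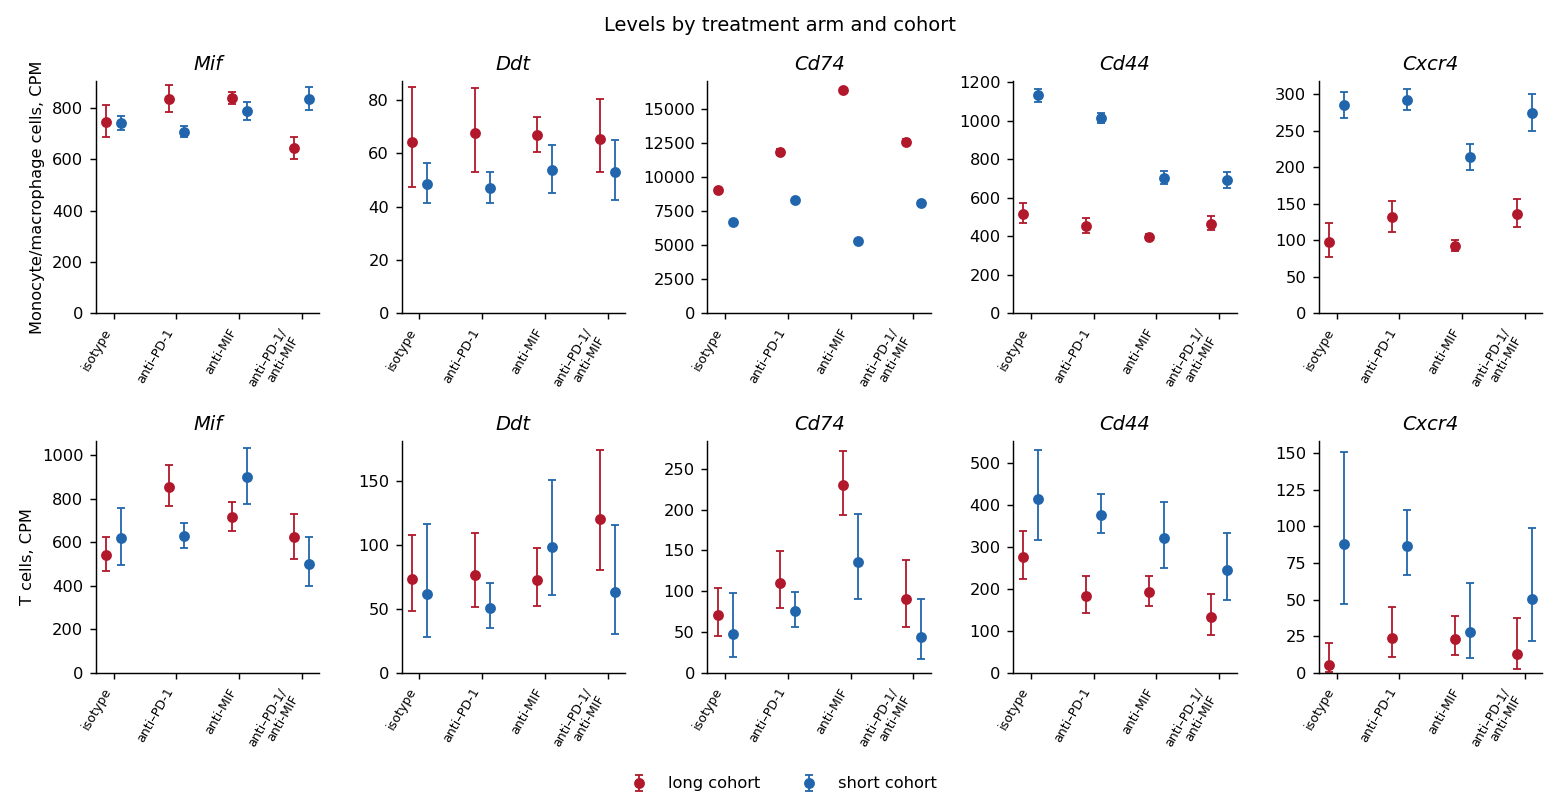
CPM (linear axes from 0) of Mif, Ddt, Cd74, Cd44 and Cxcr4 by treatment arm in monocytes/macrophages (top) and T cells (bottom), red for the long and blue for the short cohort, with exact Poisson 95% intervals that cover counting error only. In monocytes/macrophages Cxcr4 and Cd44 are lower and Cd74 higher in each long arm than in each short arm.

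Under anti-MIF or anti–PD-1 none of the 5 tested genes passed the threshold. In monocytes/macrophages edgeR called 0 of 9552 genes (0%) for anti-MIF, with 646 at an unadjusted p under 0.05 and 9 called by DESeq2, and 0 for anti–PD-1, with 471 and 1. For anti-MIF the log2 fold changes were −0.02 for Mif (SE 0.12), 0.04 for Ddt (SE 0.11), 0.12 for Cd74 (SE 0.18), −0.20 for Cxcr4 (SE 0.14) and −0.45 for Cd44 (SE 0.15, adjusted p = 0.678). Between matched arms Mif was higher with anti-MIF in 3 of 4 pairs (−0.38 to 0.24) and Cd44 lower in 3 of 4 (−0.68 to 0.03). The makeup of the gate differed between arms, with 7, 21, 215 and 34 C1qb-only cells in the long cohort (isotype, anti–PD-1, anti-MIF, then the combination), while the short cohort had 111, 35, 34 and 12. Neutrophil markers in this gate reached 7044 CPM in the long combination arm. Their median log2 fold change for anti-MIF was 3.28, with none of 6 called. The part of this makeup in the values of either antibody was not tested. Within C1qb-only cells Mif was lower with anti-MIF in 3 of 4 pairs (−0.87 to 0.22), and within Ly6c2-only cells it was higher in 3 of 4 (−0.19 to 0.48). For anti–PD-1, Cxcr4 was higher in 4 of 4 pairs (0.03 to 0.56), with a fitted value of 0.35 (SE 0.14, adjusted p = 0.940). The anti-MIF effect was tested for a difference between cohorts, and Cd74 had the largest value of the 5 genes (0.72, SE 0.27, adjusted p = 0.429). edgeR called 0 genes for that difference in monocytes/macrophages (986 at an unadjusted p under 0.05) and 0 in T cells (352), where Cxcr4 had 1.56 (SE 0.79, adjusted p = 0.771).

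In T cells 2 of 5245 genes were called for anti-MIF (0.0381%), neither of them a ligand or receptor followed here, and 0 for anti–PD-1 (198 at an unadjusted p under 0.05 and no more than 3 with any arm left out). The 2, named here after their values were seen, were Penk, an opioid precursor (3.80), and the T cell receptor segment Trav8d-2 (6.29, both with adjusted p = 0.038), and neither was called with the stricter hashtag quantile. Cd44 in T cells was lower with anti-MIF in 4 of 4 pairs (−0.63 to −0.36, fitted −0.51, SE 0.16, adjusted p = 0.9993) and lower with anti–PD-1 in 4 of 4 pairs (−0.59 to −0.13, fitted −0.44, SE 0.16, adjusted p = 0.995). Mif in T cells changed by 0.04 with anti-MIF (SE 0.20) and was higher in 2 of 4 pairs. With 4 arms against 4 and no replicate of an arm, the p-values measure the spread between arms, and they do not show that the antibodies left these genes alike. The 4 lists held no gene called for either antibody in monocytes/macrophages or T cells.

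In the smaller gates the arms were compared as values, with no test, and the values below are log2 ratios between arms that both had UMIs. With anti-MIF, Mif in pDC was lower in 3 of 3 pairs (−0.51 to −0.32) and Cxcr4 in pDC higher in 3 of 3 (0.59 to 1.24). In NK cells Ddt (0.43 to 1.19), Cd44 (0.38 to 1.76) and Cxcr4 (0.12 to 0.92) were higher with anti-MIF in 3 of 3 pairs. For Cxcr4 the pair of long anti–PD-1 with the long combination compares with 0 UMIs, so it gives a direction only, outside the range. With anti–PD-1, Mif in mature DC was lower in 4 of 4 pairs (−2.46 to −0.39), and Ddt in pDC (0.65 to 0.97) and Cxcr4 in NK cells (0.89 to 2.49) were higher in 3 of 3. For Ddt in pDC the pair of short anti-MIF with the short combination compares with 0 UMIs. That pair gives a direction only and is not in the range. These sums held 6 to 73 cells, the pairs share arms, and the genes named are those whose pairs all went 1 way.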

How the data were processed

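The authors aligned reads of 10x 5′ gene expression and hashtag libraries to mm10 with Cell Ranger 7.1.0 and deposited UMI counts per gene or hashtag and barcode, not normalized. The members and the gene lists were chosen with earlier results of these data known, and the lists were written from general knowledge. Barcodes were assigned with HTODemux (Seurat 5.3.0, quantile 0.99) in R 4.3.3, leaving out 425 and 626 hashtag doublets and 24 and 176 negatives of 2516 and 4987 barcodes (23702910 and 31799441 gene UMIs). Doublets within an arm and free RNA were not removed. Cells with 200 to 5000 genes and at most 5% mitochondrial UMIs were kept and gated, and cells in 1 gate were summed by arm. Sums of at least 5 cells were fitted with edgeR 4.0.16 (filterByExpr, TMM, quasi-likelihood, Benjamini-Hochberg), which left out the long isotype NK and long anti–PD-1/anti-MIF pDC sums (4 cells each). DESeq2 1.42.0 served as an alternative. The contrast of T cells with the rest and the anti-MIF fits in monocytes/macrophages and T cells were also run on simulated counts. The fits of subsets and of the difference in anti-MIF effect between cohorts were not. Named genes were the 7 members, the called list genes with the largest log2 fold change (at most 4 a list and comparison, given as CPM where a lineage had almost none), and the 3 genes with the highest r among 6177 with a mean of at least 20 CPM. Of 32285 gene IDs, 32158 matched GENCODE vM21. The table held 6 of 7 promoters. The annotation version the authors used is not given in the sources used here.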

Additional observations from a re-analysis of the deposited data

Results flagged for a closer look

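Cd44 in NK cells of the short anti–PD-1/anti-MIF arm, at 1245 CPM in 7 cells with a median of 2880 UMIs, lay far above the other 6 arms by Dixon's test at the 95% level. It was the 1 flag among 23 groups of arms tested, where chance gives about 1 in 20.

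Cells with the fifth hashtag (anti-PD1-MIF-DDT), a name absent from the sample labels, lay above their cohort's isotype arm beyond the counting intervals in 8 values. In monocytes/macrophages these were Cd74 (10932 against 9034 CPM), Cd44 (724 against 517 CPM) and Cxcr4 (287 against 98.3 CPM) in the long cohort and Cxcr4 (374 against 285 CPM) in the short cohort. In pDC they were Mif in the long cohort (590 against 265 CPM) and Cd44 in the short cohort (879 against 467 CPM). In the short cohort they were also Cd74 in T cells (257 against 47.6 CPM) and Cd44 in NK cells (598 against 151 CPM). Of these, Cd74 in monocytes/macrophages lay within the range of the labelled arms of its cohort (9034 to 16409 CPM). Cd44 in NK cells did so too (151 to 1245 CPM). The other values lay above the labelled arms with at least 5 cells. These are single samples, and no difference was tested.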

How the results depend on the processing

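Of 2407 refitted log2 fold changes of the members, 2311 kept their side of the threshold, 60 fell short of it and 36 newly passed it. DESeq2 gave no adjusted p for Cxcr4 between cohorts in T cells. Thinning every cell to 2000 UMIs, which leaves fewer genes to test, lowered the genes called from 1198 to 433 (T), 1186 to 409 (NK), 1516 to 572 (pDC), 2082 to 761 (mature DC), 1385 to 553 (monocyte/macrophage), 939 to 377 (C1qb against Ly6c2), 152 to 6 (Cd8a against Cd4), and 716 to 56 and 376 to 74 (cohort in monocytes/macrophages and T cells). No filter on low counts, which adds genes, raised them to 2751, 1983, 2350, 3695 and 3472 for the lineages, 311 (Cd8a against Cd4), 1208 (cohort in monocytes/macrophages), 44 and 13 (anti-MIF and anti–PD-1 there) and 37 and 44 (the same in T cells). Without the arm block the subset counts were 592 and 55. NK had 726 in the long cohort alone, and Cd8a against Cd4 had 33 and 81 in the long and short cohort alone, 15 with gates at 2 UMIs and 90 to 157 with 1 arm left out. DESeq2 called 9, 1, 1 and 199 genes for anti-MIF and anti–PD-1 in monocytes/macrophages and anti-MIF and cohort in T cells. MULTIseqDemux gave 1123 for the cohort in monocytes/macrophages. Anti-MIF in T cells had 0 with a stricter hashtag quantile, gates at 2 UMIs or cells in several gates assigned by priority. Chosen after seeing the data, fits within Ly6c2 cells called 447 genes for the cohort and 1 for anti-MIF, and within C1qb cells 0 for the cohort. With 1 arm left out the ranges were 0 to 2 and 0 to 1 (anti-MIF and anti–PD-1 in monocytes/macrophages), 0 to 4 and 0 to 3 (T cells), 1 to 1064 (cohort in monocytes/macrophages) and 129 to 389 (cohort in T cells). The cause of these changes was not tested beyond what each alternative does by construction.

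Among the members, Mif in monocytes/macrophages (0.89) and Cxcr4 in T cells (−0.78) fell under the fold threshold in the short cohort alone. Mif between C1qb and Ly6c2 cells did so under 10 alternatives (0.69 to 0.99). Cohort calls of Cxcr4, Cd44 and Cd74 in monocytes/macrophages were lost after thinning (adjusted p = 0.057, 0.071 and 0.087). Of 160 refitted shares of cells, 94 moved beyond their interval with other thinning, so shares are comparable only at equal depth. The labels give no replicate numbers shared between groups, so lineages and subsets were paired by arm. Depth limits Cxcr2 and Ackr3 to upper bounds in most gates, and Ddt to 44 to 203 UMIs outside monocytes/macrophages.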
